A study of Homo sapiens with 12 samples.

Results

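The expressed NONCODE transcripts are the rows of the expression tables that carry a NONCODE identifier and reached 1 FPKM in all 3 samples of at least one of 4 groups. They were thus chosen by their measured levels. They number 12048 of the 71462 NONCODE rows (16.9%), in tables of 98711 rows of which 27249 carry Ensembl identifiers. The groups are sorafenib-resistant and parental cells of Huh7 and HepG2, 2 human liver cancer cell lines labelled wild type. According to the labels, resistant cells came from a first dose of sorafenib, a multikinase inhibitor, of 10 μmol that was raised step by step over 8 months, and parental cells were not treated. No source states that the resistant cells were single clones or that the 3 samples of a group were separate cultures, so p-values may measure only technical spread. The level is the reads of a row per length and per depth. The identifiers (NONHSAG) are at gene level, so each row is called a NONCODE gene below.

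NONCODE is a database that gathers noncoding RNAs, most of them long noncoding RNAs, from many sources. Such RNAs are often low in abundance and restricted to a tissue or cell line. Some act on transcription of nearby genes, some bind proteins as scaffolds, and many have no known role. A catalogue of this kind also holds pseudogenes, small RNA genes and stretches inside introns, so a NONCODE identifier does not by itself mean an independent RNA. In bulk RNA, fewer expressing cells and less RNA per cell cannot be told apart.

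Sequences are shown for the kinds of locus on which the named results turn. In a pseudogene of 7SK, the small RNA that holds the elongation factor P-TEFb inactive, capitals mark bases that differ from RN7SK or have no partner in it. This copy has the highest mean level of all members (chr2:76445079-76445410, minus strand, first 300 of 332 bases, exon of RN7SKP203). In HIGD1AP2, a processed pseudogene of the hypoxia-inducible mitochondrial protein HIGD1A, capitals mark bases that differ from HIGD1A (chr13:81272891-81273170, plus strand, 280 bases). In SNORD17, a box C/D small nucleolar RNA, capitals mark the first ATGATGA and the last CTGA (chr20:17962710-17962946, minus strand, 237 bases). In AC079210.1, lower in both resistant lines, capitals mark the bases at both sides of its 2 exon junctions, after positions 76 and 192 (chr17:68557516-68582577, plus strand, first 300 of 384 bases of 3 exons). The last sequence is the promoter window of LOC105370235 in RefSeq GRCh38.p14, chr13:63728041-63728340 on the plus strand, in which capitals mark 44 bases inside NONHSAG067081.1. The others are GENCODE release 29 transcripts. All positions are on GRCh38.
RN7SKP203: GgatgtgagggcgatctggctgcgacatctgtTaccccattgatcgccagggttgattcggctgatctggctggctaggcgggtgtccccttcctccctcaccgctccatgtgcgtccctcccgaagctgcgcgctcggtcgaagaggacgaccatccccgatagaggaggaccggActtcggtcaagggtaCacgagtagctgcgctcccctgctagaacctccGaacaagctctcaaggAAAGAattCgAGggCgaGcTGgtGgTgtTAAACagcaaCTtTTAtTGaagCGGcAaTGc
HIGD1AP2: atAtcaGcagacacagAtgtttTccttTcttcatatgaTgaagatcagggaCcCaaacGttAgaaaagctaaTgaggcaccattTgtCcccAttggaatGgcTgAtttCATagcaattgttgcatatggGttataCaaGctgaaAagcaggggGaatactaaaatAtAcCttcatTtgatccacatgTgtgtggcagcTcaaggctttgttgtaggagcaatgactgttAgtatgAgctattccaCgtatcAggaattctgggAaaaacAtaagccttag
SNORD17: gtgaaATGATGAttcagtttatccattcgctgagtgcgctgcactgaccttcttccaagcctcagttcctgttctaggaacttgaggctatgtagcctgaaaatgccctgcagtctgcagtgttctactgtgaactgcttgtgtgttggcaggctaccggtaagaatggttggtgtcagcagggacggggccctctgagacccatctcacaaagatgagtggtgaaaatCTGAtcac
AC079210.1: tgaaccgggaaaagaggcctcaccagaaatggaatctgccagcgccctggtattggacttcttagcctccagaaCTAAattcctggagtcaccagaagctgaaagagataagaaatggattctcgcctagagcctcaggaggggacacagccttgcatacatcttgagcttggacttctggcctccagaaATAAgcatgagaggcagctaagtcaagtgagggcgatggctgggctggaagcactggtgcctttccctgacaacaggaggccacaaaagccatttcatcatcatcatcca
LOC105370235 promoter: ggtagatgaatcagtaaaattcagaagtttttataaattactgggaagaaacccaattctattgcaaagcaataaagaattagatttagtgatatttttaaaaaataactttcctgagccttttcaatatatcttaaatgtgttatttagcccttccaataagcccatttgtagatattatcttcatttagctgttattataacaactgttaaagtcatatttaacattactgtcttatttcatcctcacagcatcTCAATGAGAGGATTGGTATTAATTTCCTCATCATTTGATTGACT
RN7SKP203 aligned with RN7SK over 317 bases with 33 mismatches (89.6% identity), and HIGD1AP2 with HIGD1A over 280 bases with 37 mismatches (86.8% identity). Reads of such copies and of their parents may be exchanged, and the counting rule for them is not given in the sources used here. No row was found for RN7SK itself, so its level could not be set beside that of RN7SKP203.

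The values rest on 12290131 to 19285958 reads per sample, as calculated back from the deposited values. All 8 hepatocyte markers were expressed in every sample, with ALB at 571 to 2137 FPKM and the lowest, FGB, at 9.51 to 295 FPKM. Of the markers of other cells, COL1A1, COL1A2 and CDH5 ranged from 0 to 1.09 FPKM, PTPRC from 0.747 to 1.51 FPKM and PECAM1 from 1.12 to 3.61 FPKM. Over the members, log2 levels of samples of one group correlated with Pearson's r of 0.901 to 0.954, against 0.242 to 0.889 for samples of different groups.

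Parental Huh7 cells held the most members. All 3 samples reached 1 FPKM for 9128 members in parental Huh7 cells (75.8%), 7264 in resistant HepG2 cells (60.3%), 5390 in parental HepG2 cells (44.7%) and 5242 in resistant Huh7 cells (43.5%). All 4 groups were reached by 2816 members (23.4%), and 1 group alone by 4615 (38.3%). Of the latter, 2855 were members through parental Huh7 cells alone, 974 through resistant HepG2 cells, 528 through resistant Huh7 cells and 258 through parental HepG2 cells. The next patterns were parental Huh7 cells with both HepG2 groups (1093 members), both Huh7 groups (911), both HepG2 groups (771) and parental Huh7 with resistant HepG2 cells (752). These counts describe the rule and carry no test. Just inside the threshold were NONHSAG078244.1, NONHSAG052143.2 and NONHSAG061227.1, each with a deciding sample at 1.00 FPKM. Just outside were NONHSAG015413.2, NONHSAG025496.2 and NONHSAG032440.3, whose deciding samples all rounded to 1.00 FPKM from below.

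**Figure D1:**
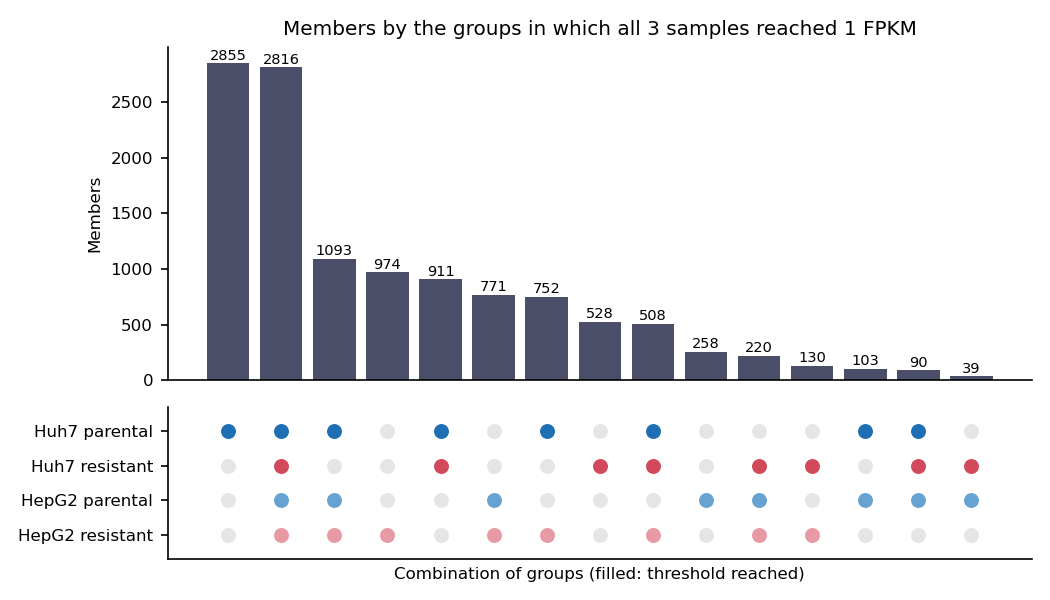
Number of members by the groups in which all 3 samples reached 1 FPKM. Each bar is one combination of groups, filled points below it name the groups, and the longest bars are 2855 members in parental Huh7 cells alone and 2816 in all 4 groups.

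The share of reads in NONCODE rows with a counted length, members or not, moved the same way. It was 4.89%, 5.14% and 4.48% in resistant Huh7 cells and 7.22%, 8.21% and 9.16% in parental Huh7 cells. In HepG2 it was 7.18%, 5.91% and 6.48% in resistant and 5.52%, 5.32% and 5.51% in parental cells. The groups of a line did not overlap, with the resistant samples below the parental ones in Huh7 and above them in HepG2. Means were 4.84% ± 0.335 against 8.20% ± 0.969 in Huh7 and 6.52% ± 0.633 against 5.45% ± 0.111 in HepG2 (SD, n = 3). Each two-sided exact permutation test gave p = 0.1, the smallest that 3 samples against 3 allow, and p = 0.1 after adjustment over the 15 comparisons of library measures. Rows farther than 5 kb from any annotated gene took 0.386% to 0.460% of reads in resistant Huh7 cells and 0.792% to 1.41% in parental Huh7 cells. They took 0.385% to 0.488% in resistant and 0.294% to 0.346% in parental HepG2 cells. Rows with no counted length, the length at which a row's values are whole reads, add nothing to these shares. The lowest rows and 53 members are among them. Sequencing depth also differed between the groups of a line, and its part in these values was not tested.

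**Figure D2:**
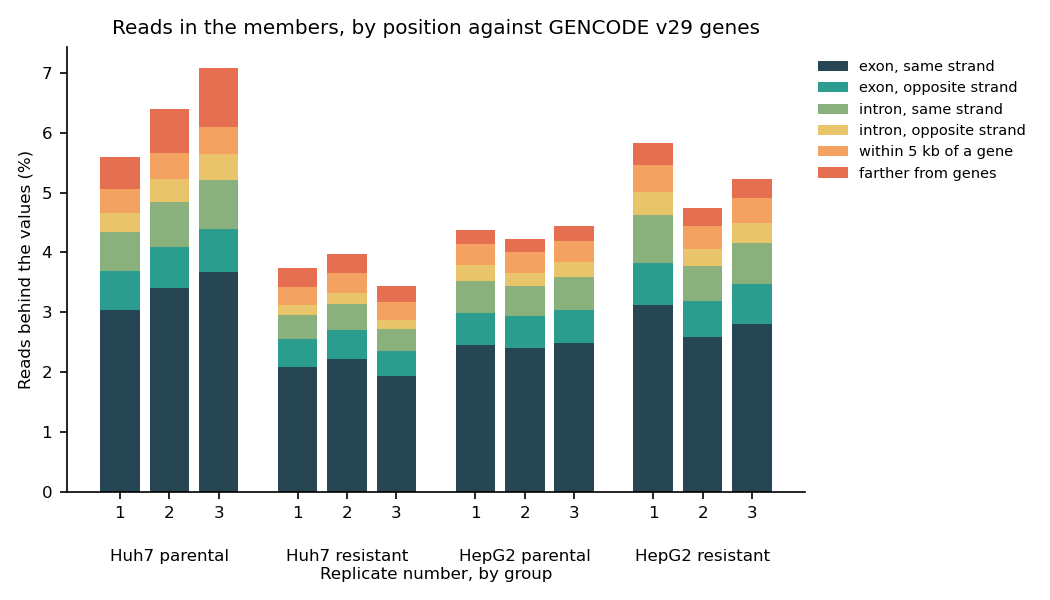
Percentage of each sample's reads in the members with a counted length, with 1 bar per sample, stacked by position against annotated genes. The 3 parental Huh7 samples sit between 5.60% and 7.08%, above the 3 resistant Huh7 samples at 3.44% to 3.97%, and resistant HepG2 samples at 4.73% to 5.83% lie above the parental ones at 4.22% to 4.44%.

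Most members were of low abundance. By the highest group mean, 3241 members (26.9%) lay at 1 to 2 FPKM, 5559 (46.1%) at 2 to 5, 2061 (17.1%) at 5 to 10, 1114 (9.25%) at 10 to 50 and 73 (0.606%) above 50 FPKM. The median was 3.00 FPKM and the maximum 929 FPKM. Breadth went with abundance, as the rule favours: 74.6% of the lowest class passed in a single group, and 75.3% of the highest class passed in all 4. Median counted length fell from 1214 bases in the lowest class to 476.5 bases in the class of 10 to 50 FPKM, and was 572 bases above 50 FPKM. In the groups where a member passed, the median number of reads per sample was 34 to 46. The 10 most abundant members took 11.3% to 14.3% of the summed FPKM of members in resistant Huh7 cells, 2.45% to 5.27% in parental Huh7 cells, 6.52% to 10.5% in resistant and 10.1% to 13.1% in parental HepG2 cells.

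By position against GENCODE, 4999 members (41.5%) overlapped an exon of an annotated gene on the same strand, 2630 of them an exon of a long noncoding RNA, 1138 of a pseudogene and 1119 of a protein-coding gene. Another 1206 (10.0%) overlapped an exon on the opposite strand only. Introns held 2040 members (16.9%) on the strand of the gene and 1282 (10.6%) on the other strand. A further 1030 (8.55%) lay within 5 kb of a gene, and 1491 (12.4%) farther away. Of all NONCODE rows inside introns on the strand of the gene, 36.7% were members, against 6.53% of the rows farther than 5 kb. Members through parental Huh7 cells alone made up 53.1% of the members farther than 5 kb from genes and 14.9% to 27.7% of the other classes. A start inside a RefSeq promoter window, 250 bases before to 50 after a gene start, was found for 981 members (8.14%) and for 5071 of the 59414 other NONCODE rows (8.54%). The library kit named in the labels is not labelled as strand-specific, and the use of strand in the counting is not given in the sources used here. Reads of a member and of a gene that overlaps it may therefore be exchanged.

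By mean over all 12 samples, the highest members lay at small structured RNA genes or copies, in the mitochondrial genome or beside 1 coding gene. NONHSAG028270.2, the copy of 7SK shown first above, measured 1200.4, 782 and 799.6 FPKM in resistant and 518, 435 and 299 FPKM in parental Huh7 cells. In HepG2 it measured 374, 560.3 and 484 FPKM in resistant and 537, 735 and 451 FPKM in parental cells. All resistant Huh7 samples were above all parental ones, and the HepG2 groups overlapped. On the scale of log2(FPKM + 1), used for every difference below, it was higher in resistant Huh7 cells by 1.16 ± 0.25 (SE, limma adjusted p = 0.004). Without resistant replicate 1 or without parental replicate 3 the difference was 0.96 or 0.93, below the required 1. The span of NONHSAG014890.2 (chr14:49853640-49862853, plus strand) holds parts of 3 genes on the opposite strand. They are 275 bases of RN7SL3 and 300 bases of RN7SL2, genes of 7SL, the RNA of the signal recognition particle, and 829 exon bases of the long noncoding RNA AL627171.2. Only 398 bases of the span were counted, and which of these genes they overlap was not determined. NONHSAG014890.2 varied widely inside groups, at 769, 371 and 403 FPKM in resistant and 719, 205 and 133 FPKM in parental Huh7 cells, and passed the test in no comparison.

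NONHSAG031351.2 is SNORD17, which lies within SNX5 and OVOL2 on their strand. It measured 410.1, 352 and 301 FPKM in resistant and 223, 132 and 132 FPKM in parental Huh7 cells, groups that did not overlap. In HepG2 it measured 477, 726 and 573 FPKM in resistant and 543, 850.1 and 459.5 FPKM in parental cells, groups that overlapped. It rose in resistant Huh7 cells by 1.15 ± 0.23 (adjusted p = 0.002) and was lower in parental Huh7 than in parental HepG2 cells by -1.92 ± 0.30 (adjusted p = 0.00068). NONHSAG053897.2 (mitochondrial genome, 15998 to 16569, plus strand) lies in part of the noncoding control region, with 26 bases opposite the tRNA gene MT-TP. Its levels were 249, 209.6 and 215 FPKM in resistant and 84.9, 80.6 and 83.4 FPKM in parental Huh7 cells, and 271, 327 and 324 FPKM in resistant and 354, 429.9 and 255 FPKM in parental HepG2 cells. Parental Huh7 cells were the low group. The rise in resistant Huh7 cells was 1.42 ± 0.11 (adjusted p = 8.2e-05), and the HepG2 difference was -0.15 ± 0.21 (adjusted p = 0.649).

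NONHSAG038331.2 (chr4:83088777-83089241, plus strand) lies 807 bases beyond the end of PLAC8, which encodes a small cysteine-rich protein. It measured 860.3, 995 and 933 FPKM in resistant and 96.4, 107 and 80.3 FPKM in parental Huh7 cells. In HepG2 it measured 3.600, 4.54 and 3.83 FPKM in resistant and 31.02, 22.03 and 17.2 FPKM in parental cells. The change had opposite signs in the lines, with no overlap in either. It rose by 3.29 ± 0.15 in resistant Huh7 cells (adjusted p = 2.1e-05) and fell in resistant HepG2 cells, with a log2 difference of -2.26 ± 0.22 (adjusted p = 0.00082). The interaction of line and resistance was 5.55 ± 0.26 (adjusted p = 3.1e-07). PLAC8 itself had means of 4.997 FPKM in resistant and 0.770 FPKM in parental Huh7 cells, and was at 0.00984 and 0.176 FPKM in resistant and parental HepG2 cells.

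**Figure D3:**
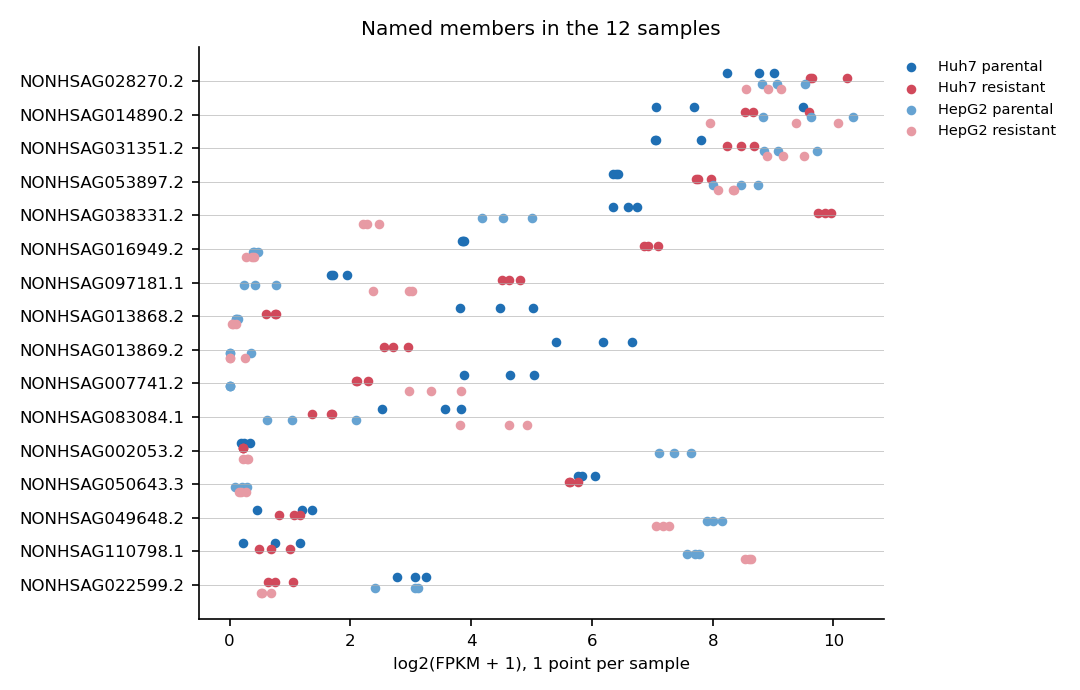
Level of named members on the log2(FPKM + 1) scale, with 1 row per member, 1 point per sample and colours for the 4 groups. NONHSAG038331.2 is highest in resistant and next in parental Huh7 cells, and lowest in resistant HepG2 cells.

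In the comparison of resistant with parental Huh7 cells, members that reached 1 FPKM in 1 group only lean to a difference by the rule. The counts that bear on resistance are therefore those of the 4325 members at 1 FPKM or more in all 6 samples. Of these, 130 rose and 985 fell, 25.8% in all, with a median log2 difference of -0.37. Over all rows tested the background was 29.5% called (5.95% higher, 23.6% lower), and over all rows at 1 FPKM or more in every sample it was 21.3% (6.68% higher, 14.6% lower). Ensembl rows of that kind were called in 19.3% of cases (8.25% higher, 11.1% lower), with a median of 0.03. Scaling by median ratios moved the median of all rows tested from -0.34 to -0.03 and gave 285 members higher and 559 lower, with a median of -0.06. The excess of lower members thus shrank with scaling and kept its direction. Over all 10262 members tested, 304 were higher and 3718 lower (median -0.73), of which 2732 were lower members that passed only in parental cells. Median-ratio scaling gave 587 higher and 2394 lower. The samples of both groups did not overlap for 75.2% of the members tested, beside 73.5% of all rows tested.

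Position went with the size of the difference. Among members at 1 FPKM or more in all 6 Huh7 samples, the median was -0.80 for the 287 farther than 5 kb from genes, with 11 higher and 122 lower. It was -0.57 for members in introns on the opposite strand, -0.42 in introns on the same strand, -0.32 and -0.28 for exon overlap on the same and opposite strand and -0.18 within 5 kb of a gene. With median-ratio scaling the farther members kept a median of -0.48 (22 higher, 95 lower), whereas the within-5-kb class turned to 0.13 and the opposite-strand exon class to 0.01. Members inside introns of coding genes were set beside their genes where both reached 1 FPKM in all 6 samples: 1130 members had a median of -0.45. Their 891 genes, each counted once per member it holds, had a median of -0.07. Across these members Pearson's r with the gene was 0.62, a description over rows of the same libraries that can share reads. Of the 326 called among them, the gene was called in the same direction for 112 and in the opposite direction for 0, and for 214 it was not called.

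**Figure D4:**
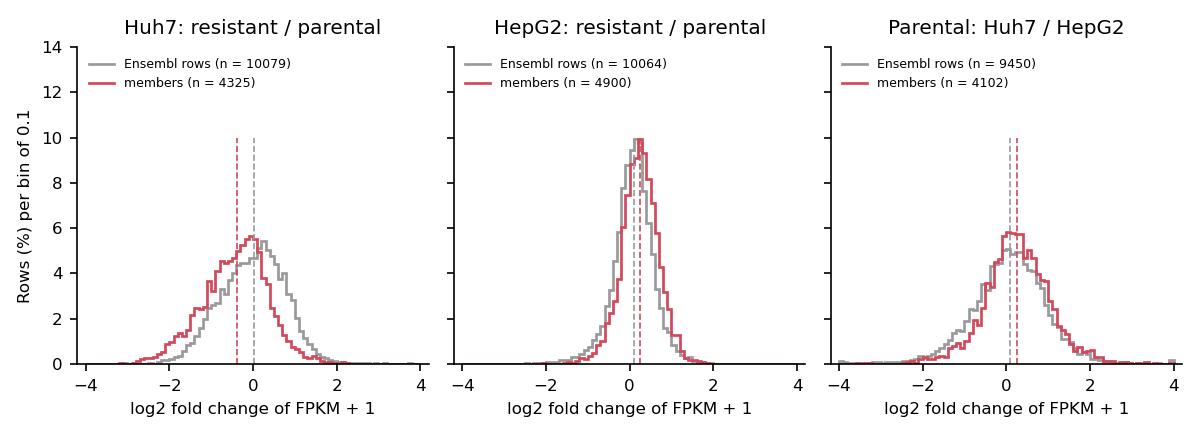
Percentage of rows per bin of 0.1 of the difference in log2(FPKM + 1), for members and Ensembl rows at 1 FPKM or more in all samples compared, with differences beyond 4 in the end bins and dashed lines at the medians. Members lie left of Ensembl rows for resistant against parental Huh7 cells (medians -0.37 and 0.03) and right of them for HepG2 (0.25 and 0.10) and for parental Huh7 against HepG2 cells (0.25 and 0.08), all before rescaling.

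Base composition moved with the Huh7 difference in the Ensembl rows. When Ensembl rows were divided into 5 equal groups by GC content, with medians from 38.1% to 60.3%, the median Huh7 log2 difference went from -0.82 through -0.44, -0.01 and 0.40 to 0.51. In HepG2, 5 groups cut in the same way had medians of 0.13, 0.10, 0.08, 0.09 and 0.19. Between parental Huh7 and HepG2 cells they were 0.63, 0.37, 0.14, -0.12 and -0.17. GC content of the members was not analysed here, and its part in their difference was not tested.

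Members differed among chromosomes as well. The largest numbers were on chromosome 1 (1074) and chromosome 2 (1033). Chromosome 19 held 3.29% of members and 5.97% of expressed Ensembl rows, and chromosome 13 held 3.06% and 1.78%. Among the autosomes and chromosome X, the share of members that passed in parental Huh7 cells alone ran from 47.2% on chromosome 4 down to 8.71% on chromosome 16. Members that passed only in parental Huh7 cells lean to lower values in resistant Huh7 cells by the rule. The medians given here are therefore over rows at 1 FPKM or more in all 6 samples compared. The median Huh7 difference of such members was -0.67 on chromosome 2, -0.66 on chromosomes 4, 8 and 13, -0.04 on chromosome 16 and 0.09 on chromosome 22. Ensembl rows of that kind had medians of -0.51 on chromosome 4, -0.50 on chromosome 13, -0.10 on chromosomes 2 and 8, 0.30 on chromosome 16 and 0.47 on chromosome 22. Over 23 chromosomes, Spearman's rho of the members' median was 0.854 with the median GC of Ensembl rows and 0.822 with the median difference of Ensembl rows, all from the same libraries. In HepG2 these values were -0.119 and 0.509, and between the parental lines -0.387 and 0.855. In windows of 5 Mb, members of parental Huh7 cells alone lay in 507 of the 603 windows with a member, and 11 windows held 20 or more. The window with the most was chr5:25000001-30000000, with 42 of its 49 members, 28 of them farther than 5 kb from genes. The window chr13:85000001-90000000 held 20 members, all of this kind.

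**Figure D5:**
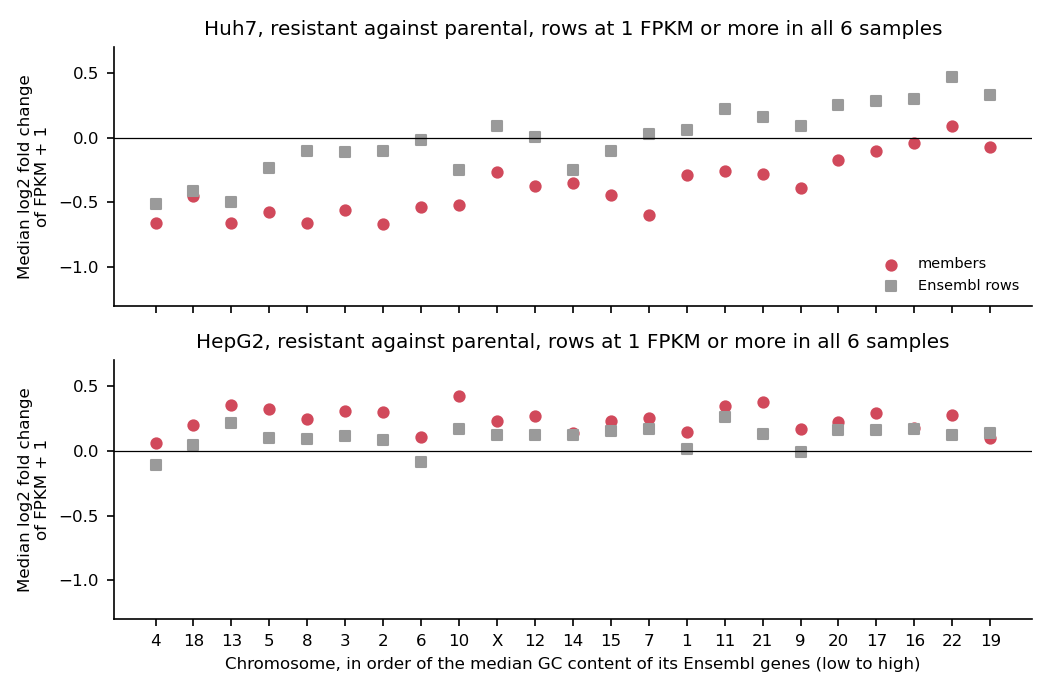
Median difference in log2(FPKM + 1) of resistant against parental cells by chromosome for members (circles) and Ensembl rows (squares), with Huh7 above, HepG2 below and chromosomes in order of the median GC content of their Ensembl genes. Rows are those at 1 FPKM or more in all 6 samples of the line. In Huh7 the members' medians run from -0.67 on chromosome 2 to 0.09 on chromosome 22, and in HepG2 they all lie above 0 before rescaling.

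A rule named the 4 members with the largest change in each direction, and members that passed in one group only are given without a test. The first higher one was the neighbour of PLAC8 described above. NONHSAG016949.2 (chr15:53426880-53431766, plus strand) lies 81975 bases from WDR72, a WD repeat gene. It measured 136, 121 and 116 FPKM in resistant and 13.6, 13.8 and 13.4 FPKM in parental Huh7 cells, and at most 0.39 FPKM in any HepG2 sample. It rose by 3.10 ± 0.10 (adjusted p = 1.1e-05), while WDR72 had means of 1.79 FPKM in resistant and 4.22 FPKM in parental cells. NONHSAG097181.1 (chr7:85223997-85249866, minus strand) lies 37142 bases from SEMA3D, a secreted guidance protein. It measured 21.7, 26.999 and 23.7 FPKM in resistant and 2.19, 2.85 and 2.29 FPKM in parental Huh7 cells, a rise of 2.87 ± 0.13 (adjusted p = 2.1e-05). SEMA3D fell, with a log2 difference of -1.48, opposite to the member. NONHSAG024144.2 (chr18:73249936-73250727, plus strand, opposite AC079062.1) measured 16.2, 11.2 and 15.3 FPKM in resistant and 0.762, 0.928 and 1.81 FPKM in parental Huh7 cells, a log2 difference of 2.83 ± 0.21.

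The 4 lower members all lay on chromosome 13. NONHSAG013868.2 (chr13:81250438-81350100, plus strand, over the long noncoding RNA AL353633.1) measured 0.704, 0.692 and 0.514 FPKM in resistant and 13.1, 21.3 and 31.6 FPKM in parental Huh7 cells, a log2 difference of -3.73 ± 0.27. HIGD1AP2, the pseudogene shown above (NONHSAG013869.2), lies inside that row on the same strand. It measured 4.89, 5.56 and 6.76 FPKM in resistant and 41.6, 71.9 and 100.3 FPKM in parental Huh7 cells, and at most 0.272 FPKM in any HepG2 sample. It fell with a log2 difference of -3.34 ± 0.29 (adjusted p = 0.00011). NONHSAG067081.1 (chr13:63728297-63735232, plus strand), whose start lies in the promoter window shown above, is opposite to LINC00395. It measured 0.374, 0.919 and 1.31 FPKM in resistant and 15.02, 20.4 and 25.2 FPKM in parental Huh7 cells. NONHSAG067656.1 (chr13:85529851-85574852, minus strand), opposite to LINC00351, measured 0.251, 0 and 0.751 FPKM in resistant and 8.76, 11.6 and 20.04 FPKM in parental Huh7 cells. The log2 differences were -3.51 ± 0.24 and -3.40 ± 0.31. That the groups of all 4 members did not overlap was required by the naming rule. All but HIGD1AP2 passed in Huh7 only in parental cells, so the membership rule also favours their lower values.

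In HepG2 the members differed less, and the balance of their directions depended on scaling. Of the 4900 members at 1 FPKM or more in all 6 samples, 185 rose and 45 fell (4.69%), with a median of 0.25. The background was 6.2% of all rows tested (4.02% higher, 2.18% lower) and 5.11% of all rows at 1 FPKM or more in every sample (3.03% higher, 2.07% lower), so the members' share lay near it. Ensembl rows of that kind split 2.67% higher and 2.63% lower (median 0.10). Median-ratio scaling gave 69 higher and 80 lower (median 0.09), and upper-quartile scaling 92 higher and 73 lower. Over all 8246 members tested, 446 were higher and 99 lower, and with median-ratio scaling 245 and 150. The samples of both groups did not overlap for 39.8% of the members tested, beside 39.1% of all rows tested. Where member and gene both reached 1 FPKM in all 6 samples, 1394 members in introns of coding genes had a median of 0.30. Their 1025 genes, each counted once per member it holds, had a median of 0.02. Of the 72 called among them, the gene was called in the same direction for 8.

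NONHSAG007741.2 (chr11:16044228-16047438, plus strand) lies opposite an exon of SOX6, a transcription factor of the SOX family. It measured 13.3, 9.08 and 6.86 FPKM in resistant HepG2 cells and 0 in all 3 parental samples, at least 11.9-fold higher by a floor of 3 reads per library. In Huh7 it measured 3.31, 3.25 and 3.88 FPKM in resistant and 13.8, 24.1 and 31.7 FPKM in parental cells, a fall with a log2 difference of -2.36 ± 0.26 (adjusted p = 0.00022). SOX6 had means of 4.49 and 0.446 FPKM in resistant and parental HepG2 cells and 3.66 and 9.82 FPKM in Huh7 cells, so gene and member had the same signs. NONHSAG083084.1 (chr21:22184598-22190555, minus strand) is 14637 bases from the nearest gene, RNU4-45P. It measured 29.3, 13.1 and 23.6 FPKM in resistant and 3.25, 1.04 and 0.543 FPKM in parental HepG2 cells, a difference of 3.20 ± 0.40. NONHSAG110637.1 (chr20:62638582-62640131, plus strand, 588 bases from AL357033.1) measured 9.45, 11.05 and 11.1 FPKM in resistant and 0.393, 0.105 and 1.23 FPKM in parental HepG2 cells. NONHSAG033508.2 (chr22:24006305-24008258, minus strand, the pseudogene AC253536.4) measured 10.6, 11.3 and 16.3 FPKM in resistant and 0.285, 0.305 and 2.62 FPKM in parental HepG2 cells. All 4 were near or below 1 FPKM in at least 2 parental samples, and in HepG2 passed only in resistant cells. That the resistant samples were all higher was required by the naming rule.

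The largest difference in HepG2 was a loss. NONHSAG002053.2 (chr1:91489020-91499222, minus strand) lies 1671 bases upstream of CDC7, the kinase that triggers DNA replication origins. It measured 162, 198 and 136 FPKM in parental and 0.227, 0.168 and 0.224 FPKM in resistant HepG2 cells, and 0.143 to 0.257 FPKM in all Huh7 samples. The log2 difference was -7.09 ± 0.17 in HepG2, where the member passed only in parental cells and the rule favours a fall. CDC7 had means of 14.4 FPKM in parental and 3.06 FPKM in resistant HepG2 cells, and 11.7 and 4.57 FPKM in parental and resistant Huh7 cells. The gene was thus expressed in parental Huh7 cells while the member was not. NONHSAG073818.1 (chr17:68589730-68600425, minus strand) overlaps exons of FAM20A, a pseudokinase of the secretory pathway, and measured 17.99, 24.2 and 15.996 FPKM in parental and 0.528, 1.05 and 1.48 FPKM in resistant HepG2 cells. In Huh7 it fell from 4.41, 7.05 and 4.74 FPKM to 1.75, 1.92 and 1.48 FPKM, with a log2 difference of -1.22 ± 0.18 (adjusted p = 0.00063) that came to -0.90 with median-ratio scaling. NONHSAG043963.2 (chr6:53623494-53624716, plus strand, 3664 bases from LINC01564) measured 21.3, 7.40 and 8.89 FPKM in parental and 0.619, 0 and 0.203 FPKM in resistant HepG2 cells, and LINC01564 had means of 8.10 and 0.439 FPKM. NONHSAG062694.1 (chr11:20095079-20098267, plus strand) overlaps exons of NAV2, neuron navigator 2, and measured 6.90, 10.02 and 8.57 FPKM in parental and 0.128, 0.159 and 0.0842 FPKM in resistant HepG2 cells. NAV2 had means of 19.3 and 0.239 FPKM in the same cells.

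Calls in both lines were counted among the 2816 members at 1 FPKM or more in all 12 samples. Of these, 2 were higher in both lines (2.50% of the Huh7 and 1.94% of the HepG2 list) and 4 lower in both (of 659 and 20 lower). Another 48 were lower in resistant Huh7 and higher in resistant HepG2 cells (7.28% and 46.6%), and 2 were the reverse. Of the 2816, 659 were lower in resistant Huh7 cells, whatever their change in HepG2. All counts here are before rescaling, which changed the balance of directions in HepG2. Among 8873 Ensembl rows at that level the counts were 25 higher in both, 28 lower in both, 26 lower in Huh7 and higher in HepG2 and 34 the reverse. Over all 6460 members tested in both lines, one-group members included, the counts were 8, 13, 163 and 4 in that order, and 30, 37, 56 and 55 over 10688 Ensembl rows. NONHSAG022599.2, the AC079210.1 transcript shown above, lies inside FAM20A on the other strand, beside NONHSAG073818.1. It measured 0.549, 1.08 and 0.685 FPKM in resistant and 5.80, 8.50 and 7.41 FPKM in parental Huh7 cells, and 0.615, 0.427 and 0.454 FPKM and 7.74, 7.42 and 4.30 FPKM in HepG2. The log2 differences were -2.22 ± 0.18 and -2.29 ± 0.22, and the interaction was 0.07 ± 0.29. This member passed only in parental cells of both lines, so the rule favours lower values in resistant cells. FAM20A itself had means of 1.94 and 6.24 FPKM in resistant and parental Huh7 cells and 1.58 and 4.25 FPKM in HepG2 cells.

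NONHSAG077131.1 (chr2:13455124-13526619, plus strand, 11054 bases from AC073062.1) was the other lower member. It measured 6.49, 5.36 and 5.66 FPKM in resistant and 24.1, 35.6 and 41.1 FPKM in parental Huh7 cells, and 3.50, 4.09 and 3.07 FPKM and 18.2, 13.9 and 13.3 FPKM in HepG2. It fell in both lines, with log2 differences of -2.31 ± 0.19 (adjusted p = 9.1e-05) and -1.82 ± 0.18 (adjusted p = 0.00085). Of the higher ones, NONHSAG097181.1 measured 6.82, 4.17 and 7.09 FPKM in resistant and 0.332, 0.177 and 0.693 FPKM in parental HepG2 cells, a difference of 2.32 ± 0.23. In HepG2 it passed only in resistant cells, so the rule favours a rise there. NONHSAG010422.2 (chr12:8788505-8791540, minus strand, within A2ML1-AS1) measured 2.36, 3.15 and 4.37 FPKM in resistant and 0, 0 and 0.198 FPKM in parental Huh7 cells, and 1.32, 2.62 and 3.16 FPKM and 0.243, 0 and 0.609 FPKM in HepG2. This last member passed only in resistant cells of both lines, so the rule favours higher values there. Its HepG2 call was lost when low rows were not filtered.

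The test of the difference between the lines was read on the 2816 members at 1 FPKM or more in all 12 samples. It called 93 with a more positive and 995 with a more negative change in Huh7 than in HepG2 (median -0.61). The background over all rows at that level was 29.5% (9.23% and 20.3%). With median-ratio scaling the split was 284 and 576 (median -0.15). Over all 12048 members, many of which passed in parental Huh7 cells alone and so lean to negative values by the rule, 403 and 5122 were called, and 836 and 3521 with median-ratio scaling. The background over all rows tested was 35.5% (6.84% and 28.7%). Of the 3 members named for their interaction, NONHSAG038331.2 reached 1 FPKM in all samples, with the value given above. NONHSAG002053.2 was near 0 in 3 groups, and its fitted interaction was 7.05 ± 0.19. NONHSAG007741.2 was at 0 in parental HepG2 cells, so its fitted value depends on the pseudocount and is not given as a size.

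Between the parental lines, 4102 members were at 1 FPKM or more in all 6 samples. Of these, 619 were higher and 232 lower in Huh7 than in HepG2 (20.7%), beside a background of 36% of all rows tested (26% higher, 10% lower) and 22.5% of all rows at that level (13.2% higher, 9.25% lower). The share lay near that of Ensembl rows, 23.2%. With median-ratio scaling the split turned to 349 higher and 387 lower. Over all 10823 members tested, 3756 were higher and 807 lower, and 3079 and 1076 with median-ratio scaling. The samples did not overlap for 70.2% of the members tested, beside 69% of all rows tested. The comparison is of 1 line with 1 line, so donor and culture cannot be told apart.

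The members named for this comparison were high in parental cells of 1 line and at or below 1.57 FPKM in those of the other, and are given without a test. NONHSAG050643.3 (chr8:83403746-83408922, plus strand) covers the long noncoding RNA LINC01419. It measured 53.8, 56.2 and 65.7 FPKM in parental and 48.97, 53.8 and 48.1 FPKM in resistant Huh7 cells, and at most 0.225 FPKM in any HepG2 sample. NONHSAG085116.1 (chr3:162469061-162472133, plus strand, 14408 bases from the pseudogene TOMM22P6) measured 29.02, 52.2 and 67.7 FPKM in parental and 9.67, 10.9 and 6.69 FPKM in resistant Huh7 cells. HIGD1AP2 was the other one high in Huh7, and the member upstream of CDC7 the other one high in HepG2. NONHSAG049648.2 (chr8:17910367-17913534, plus strand) starts 2 bases from FGL1, which encodes a fibrinogen-like protein secreted by hepatocytes. It measured 256, 239 and 282 FPKM in parental and 155, 133 and 144 FPKM in resistant HepG2 cells, and 0.363 to 1.57 FPKM in Huh7. FGL1 had means of 32.4 and 15.9 FPKM in parental and resistant HepG2 cells and 1.89 and 0.312 FPKM in Huh7 cells. NONHSAG110798.1 (chr21:8989481-8990949, plus strand, 2051 bases beyond MIR3687-2) measured 218, 207 and 189 FPKM in parental and 369.7, 398 and 387 FPKM in resistant HepG2 cells, and 0.169 to 1.25 FPKM in Huh7.

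A list of 48 named long noncoding and small structured RNA genes gave a comparison with well known RNAs. Of these, 33 matched a NONCODE row, by position after the files had been seen, 6 had an Ensembl row and 9 had no row or no entry in the annotation. The NONCODE rows of the list held 16 members, of which 13 were tested in Huh7 with 2 higher and 2 lower, and 12 in HepG2 with 1 higher and 0 lower, shares near the 29.5% and 6.2% of all rows tested. SNHG6, a small nucleolar RNA host gene, measured 25.5, 23.6 and 21.5 FPKM in resistant and 10.9, 11.7 and 8.06 FPKM in parental Huh7 cells. In HepG2 it measured 9.36, 8.28 and 9.32 FPKM in resistant and 2.39, 4.27 and 3.99 FPKM in parental cells. It rose in both lines, by 1.14 ± 0.15 (adjusted p = 0.00036) and 1.16 ± 0.20 (adjusted p = 0.0081). MIR22HG, the host of miR-22, rose in Huh7 by 1.02 ± 0.17. FTX, a noncoding RNA of the X inactivation centre, and LINC00261, next to FOXA2, passed in Huh7 only in parental cells, and had log2 differences of -1.33 ± 0.16 and -1.25 ± 0.13. Of 14 members tested between the parental lines, SNHG6 and DANCR were higher in Huh7 (1.31 and 1.09). SNHG14 and SNHG20 passed only in HepG2 cells, so the rule favours lower values in Huh7, and differed by -3.11 and -1.22. Among the Ensembl rows of the list, UCA1 (1.36 ± 0.13) and SNHG3 (2.39 ± 0.19) rose in Huh7. The rows of MALAT1 and NEAT1, abundant nuclear RNAs in most cells, had group means of at most 0.151 and 0.0181 FPKM and were not members. A row on the opposite strand overlaps both, and how shared reads were counted is not given in the sources used here. These values may therefore not be the levels of the RNAs.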

How the data were processed

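RNA-seq tables of 12 samples were used, with groups and replicate numbers from the sample labels. The deposited values carry no stated unit. They behave as reads per length and depth and are called FPKM (FPKM and RPKM cannot be told apart), and the authors made them by steps not given in the sources used here. GRCh38 and bcl2fastq are named in the submitters' processing notes. For single-exon genes, 99.8% to 99.9% of values came within 0.05 of whole reads, which gave the reads per sample and the counted length of 11995 members. Rows that reached 1 FPKM in 3 or more of the samples compared were tested with limma 3.58.1 in R 4.3.3 on log2(FPKM + 1), with a trend and Benjamini-Hochberg adjustment over all rows tested. Calls needed an adjusted p under 0.05 and a log2 difference beyond 1. Positions were set against GENCODE release 29 with bedtools 2.31.1, and tables were handled with Python 3.11.15.

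Members, gene lists and tests were chosen with earlier results of these data known. Named members were, first, the 5 most abundant. Then came those with the largest differences among called members whose groups did not overlap, 4 per line and direction and 3 per direction between parental lines. A further 3 were named by interaction and 2 per direction for calls in both lines. In data simulated with 200 changed rows, 84.8% of 4-fold and 97.0% of 8-fold changes were recovered in Huh7, and 82.8% and 99.0% in HepG2. The simulation gave all rows of both lines the same spread and changed only members above a set level. These shares therefore do not hold for members of lower level or wider spread, and do not compare the lines. Alternatives were another pseudocount, no filter, 2 other scalings, other membership thresholds, leaving out exon overlaps, a replicate block and each sample in turn, and, chosen after seeing the data, limma-voom and a repeated filter. Bounds against groups at 0 used 3 reads per library and cover counting error only.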

Additional observations from a re-analysis of the deposited data

Results flagged for a closer look

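The change with resistance differed between Huh7 and HepG2, by limma's test of the interaction of line and resistance, for 5525 members of 12048, beside 35.5% of all rows tested. That count includes members that passed in 1 group alone, for which the rule itself favours a difference. Values below are that interaction on the log2(FPKM + 1) scale, positive where the change was more positive in Huh7. Among the named members high in resistant Huh7 cells it was 5.55 for NONHSAG038331.2, 3.17 for NONHSAG016949.2 and 3.02 for NONHSAG024144.2. For NONHSAG097181.1, which rose in both lines, it was 0.55 and was not called. Among those low in resistant Huh7 cells it was -3.68 for NONHSAG013868.2, -3.49 for NONHSAG067081.1, -3.36 for NONHSAG067656.1 and -3.315 for NONHSAG013869.2 (HIGD1AP2). All 4 were at or below 0.387 FPKM in every HepG2 sample. Of the members high in resistant HepG2 cells it was -5.74 for NONHSAG007741.2, opposite SOX6, -4.93 for NONHSAG083084.1, -2.87 for NONHSAG110637.1 and -2.83 for NONHSAG033508.2. For those low in resistant HepG2 cells it was 7.05 for NONHSAG002053.2, upstream of CDC7, 2.13 for NONHSAG073818.1 in FAM20A, 3.21 for NONHSAG043963.2 and 2.91 for NONHSAG062694.1 in NAV2. NONHSAG007741.2 was at 0 in all parental HepG2 samples, so its value depends on the pseudocount. These members were named for their change in one line, and most passed in 1 group of that line.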

How the results depend on the processing

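Counts of called members depended on the settings as follows. In Huh7, leaving out members that overlap an exon gave 2352 of 5006 tested and limma-voom 6091 of 10225, beside 4022 of 10262. In HepG2, a pseudocount of 0.1 gave 999 of 8246 and no filter 216 of 11612, beside 545 of 8246. Leaving out exon overlaps gave 293 of 3706 and limma-voom 1194 of 8211. Without exon overlaps the parental comparison gave 2621 of 5257, beside 4563 of 10823, and the interaction 3046 of 5843, beside 5525 of 12048. Fewer members were thus tested without exon overlaps, and the share called did not fall. A threshold of 2 FPKM left 6858 members. Leaving out 1 sample, with or without the filter repeated, gave 1933 to 4392 calls in Huh7, lowest without parental replicate 3, 258 to 706 in HepG2, lowest without resistant replicate 3, 1908 to 4766 between the parental lines, lowest without Huh7 parental replicate 3, and 4147 to 5816 for the interaction. The lowest values came with the repeated filter, which tests fewer rows.

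Pairing of samples by replicate number was not clear, and 3 samples per group cannot exclude it. Correlations of deviations for equal numbers were -0.05, 0.03 and -0.12 in Huh7, 0.12, 0.25 and -0.02 in HepG2, and -0.06, -0.03 and 0.10 between parental lines. For unequal numbers they ran from -0.08 to 0.13, -0.27 to 0.16 and -0.14 to 0.17 in that order. With a replicate block, 4012 members were called in Huh7, 578 in HepG2, 4569 between parental lines and 5500 for the interaction. Median-ratio scaling kept 2698 of the 4022 Huh7 calls (67.1%), 344 of 545 in HepG2 (63.1%) and 3886 of 4563 between parental lines (85.2%). Over all alternatives, 2098 values of named members kept their side of the threshold, 20 gained a call, 15 lost it and 0 reversed. Removal of the GC trend was not run for members, since it needs their GC content. Most members rest on few reads per sample, which limits small changes.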

Other observations

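The member NONHSAG110798.1 has neighbours on the short arm of chromosome 21, some with a like pattern and some without. In chr21:8992310-8993246, NONHSAG110799.1 had means of 471 FPKM in resistant and 242 FPKM in parental HepG2 cells, and 0.597 and 1.07 FPKM in resistant and parental Huh7 cells. NONHSAG110800.1, at chr21:8993398-8994695, had means of 215 and 117 FPKM in resistant and parental HepG2 cells, and 0.297 and 0.492 FPKM in Huh7 cells. NONHSAG032337.3, on the minus strand at chr21:8986605-8988887, had means of 58.7 and 29.2 FPKM in HepG2 and at most 0.141 FPKM in Huh7. Other rows there did not share the pattern. NONHSAG083031.1 went the other way in HepG2, with means of 4.58 FPKM in resistant and 9.07 FPKM in parental cells. NONHSAG083240.2 had means of 4.51 and 3.02 FPKM in resistant and parental HepG2 cells. NONHSAG032341.2 was highest in parental Huh7 cells, with a mean of 2.24 FPKM. All these rows were chosen after their values were seen.

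The rows of MALAT1 and NEAT1 lie inside NONHSAG063480.2, which spans both on the opposite strand (chr11:65408384-65511027) and measured 0.0956 to 0.362 FPKM over the 12 samples. All 3 rows were below the threshold for members.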
